A study of Homo sapiens with 2 samples.

Results

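The Hippo pathway genes AMOTL1, AMOTL2, AJUBA, LATS1, LATS2, NF2, WWC1, STK3, SAV1 and LIMD1 were taken by symbol from the deposited gene list, where each matched 1 gene ID. They are 10 of 36601 genes listed. The series measured single-cell RNA in HT1080, an established human fibrosarcoma line labelled wild type, invading from spheroids into collagen gels for 72 h. The control culture carries no named antibody, and the other culture received 4B4, an antibody that blocks β1 integrin, at 2 µg/ml. Both cultures were otherwise described alike: spheroids of 2000 cells, about 50 of them in 500 µl of collagen, all released by collagenase and trypsin. Each group is 1 library of pooled spheroids, so no difference has a replicate check, library and treatment cannot be told apart, and no test was made.

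The Hippo pathway is a kinase cascade that restrains the transcriptional co-activators YAP and TAZ. STK3 with its adaptor SAV1 activates LATS1 and LATS2, which phosphorylate YAP and TAZ and keep them out of the nucleus, where they would bind TEAD factors. NF2 (merlin) and WWC1 (KIBRA) act upstream of the kinases at the membrane, the angiomotins AMOTL1 and AMOTL2 bind YAP and scaffold LATS kinases, and the LIM proteins AJUBA and LIMD1 bind LATS kinases and hold them back. Adhesion and tension on the actin cytoskeleton feed into this cascade. Several of these genes, AMOTL2, LATS2 and NF2 among them, are known as transcriptional outputs of YAP and TEAD, so that they report on the pathway as well as act in it.

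TEAD factors bind DNA at a core written CATTCC on one strand and GGAATG on the other. RefSeq promoter windows on GRCh38.p14, from 250 bases before to 50 bases after a start site, were matched by symbol for 8 of the 10 genes, in 12 windows, and LIMD1 and STK3 were not matched. Exact copies of the core on either strand stood in a window of AMOTL2, AJUBA and LATS2, and in none of the windows of AMOTL1, LATS1, NF2, WWC1 and SAV1. Over all genes in that table, 16.7% had the core in any window. These 3 sites are the only copies of the core found in the 12 windows. All 3 genes were lower under the antibody, as described next, but so was WWC1, whose window held no core. Whether the core goes with the response to the antibody was not tested. Each is printed 5′ to 3′ on the gene's own strand, with the core in capitals.
AMOTL2, chr3:134374499-134374528, minus strand: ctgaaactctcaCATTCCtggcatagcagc
AJUBA, chr14:22976884-22976913, minus strand: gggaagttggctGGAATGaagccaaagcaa
LATS2, chr13:21061560-21061589, minus strand: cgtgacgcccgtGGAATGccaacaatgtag
The core began 69 bases before the start site in AMOTL2 and 59 bases before it in AJUBA, in each case at the second of 2 listed start sites, and at base 10 after the start in LATS2. A match describes these letters and does not show a bound site. Genes at which the windows held no core can have one elsewhere.

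Cells with 1000 or more detected genes and no more than 20% of UMIs (unique molecular identifiers, 1 per captured RNA) from mitochondrial genes were kept. They numbered 3402 in the control and 1385 in the 4B4 culture, with medians of 32914 and 68556 UMIs and totals of 127218114 and 116451080. The libraries shared 2 barcodes. Levels are UMIs per 1000000 of a library's kept UMIs (UPM). Values in parentheses bound the exact 95% interval from counting alone. Mesenchymal markers (VIM and others) reached 5 UPM for 7 of 8 genes in both libraries, with sums of 5936 and 5566 UPM. Of the epithelial, leukocyte and endothelial lists 1 gene each reached that level in either library (CLDN4, CD68 and PECAM1), with sums of 13.6 and 15.7, 28.4 and 40.4, and 32.6 and 47.7 UPM, and of 5 normal fibroblast markers none did. Once each cell had been thinned at random to 17000 UMIs (equal depth, below), 19.8% of control cells and 6.48% of 4B4 cells were called G2M, and 13.1% and 5.80% were called S. The part of the phase difference in the results was examined by the splits by phase given below and by giving the phases equal weight. Under equal weight AMOTL2 had a log2 ratio (4B4 over control) of -1.57, and AJUBA, WWC1, LATS2, NF2 and LIMD1 also had negative ratios. AMOTL1 (0.034), LATS1 (0.019), STK3 (0.13) and SAV1 (0.090) had positive ones, unlike without the weights.

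With 4B4, AMOTL2, AJUBA, WWC1 and LATS2 were lower by 1.5-fold or more, and none of the 10 genes was as much higher. Over the 11359 genes that reached 5 UPM in 1 or both cultures, 5.82% were called lower and 2.1% higher by the same rule, which also asks that the counting interval lie on the same side. AMOTL2, AJUBA and WWC1 also passed a 2-fold bound, as 2.2% of measured genes did. AJUBA reached 5 UPM in the control culture alone, and a gene measured in that way can only be lower. The shares over all measured genes include such genes. The median log2 ratio (4B4 over control) of the 10 genes was -0.39, beside -0.0089 over all 11359. All 10 ratios were below 0, as were 51.9% of those of all measured genes, but for AMOTL1, LATS1, STK3 and SAV1 the sign turned under other settings. Since the genes were chosen by name with earlier results of these data known, these counts are a description.

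Among the angiomotin scaffolds, AMOTL2 made up 43.1 UPM (42.0 to 44.3) of control RNA and 12.8 UPM (12.1 to 13.4) with the antibody. Its log2 ratio of -1.76 (-1.84 to -1.67) was the 28th lowest of the 11359, and under 10 other settings it lay between -1.85 and -1.57. AMOTL1, which shares the scaffold's YAP-binding and LATS-binding roles, was at 57.5 UPM (56.2 to 58.8) and 52.1 (50.8 to 53.4), a log2 ratio of -0.14 (-0.19 to -0.094). The related genes thus had unlike ratios in the same libraries.

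AJUBA, the LIM scaffold, stood at 9.13 UPM (8.61 to 9.67) in control cells and at 3.74 UPM (3.40 to 4.11) in antibody-treated cells, a log2 ratio of -1.29 (-1.45 to -1.13). LIMD1, of the same protein family, was at 19.5 UPM (18.7 to 20.3) and 16.0 (15.3 to 16.8), a log2 ratio of -0.28. WTIP, another member of that family and from a wider list of upstream genes, was at 6.19 and 2.89 UPM, a log2 ratio of -1.10.

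Of the kinases, LATS2 accounted for 46.2 UPM (45.0 to 47.4) without and 29.8 UPM (28.8 to 30.8) with the antibody. Its log2 ratio of -0.63 (-0.69 to -0.57) came below 1.5-fold with cells thinned to equal depth (-0.54) and with each cell weighing the same (-0.48). LATS1, its close relative, was at 19.4 UPM (18.6 to 20.1) and 18.0 (17.3 to 18.8), a log2 ratio of -0.10. STK3, the kinase upstream of both, was at 71.6 UPM (70.1 to 73.1) and 67.7 (66.2 to 69.2), a log2 ratio of -0.081 that was above 0 under 5 of 10 other settings. Only LATS2 of these 3 kinases passed the 1.5-fold bound.

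Among the upstream proteins and the adaptor, WWC1 went from 32.4 UPM (31.4 to 33.4) in control cells to 15.1 UPM (14.4 to 15.8) under 4B4, a log2 ratio of -1.10 (-1.18 to -1.02). NF2 was at 39.9 UPM (38.8 to 41.0) and 28.4 (27.4 to 29.3), a log2 ratio of -0.49 (-0.55 to -0.43). Over the 10 other settings the ratio of NF2 had the widest range of the 10 genes, at -0.17 over G1 cells alone, but -0.65 when cells needed 2000 genes and no more than 10% mitochondrial UMIs, and -0.66 among cells holding 20000 to 60000 UMIs, both past 1.5-fold. SAV1 was at 32.6 UPM (31.6 to 33.6) and 31.7 (30.7 to 32.7), a log2 ratio of -0.039 whose counting interval spanned 0 (-0.10 to 0.026).

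**Figure D1:**
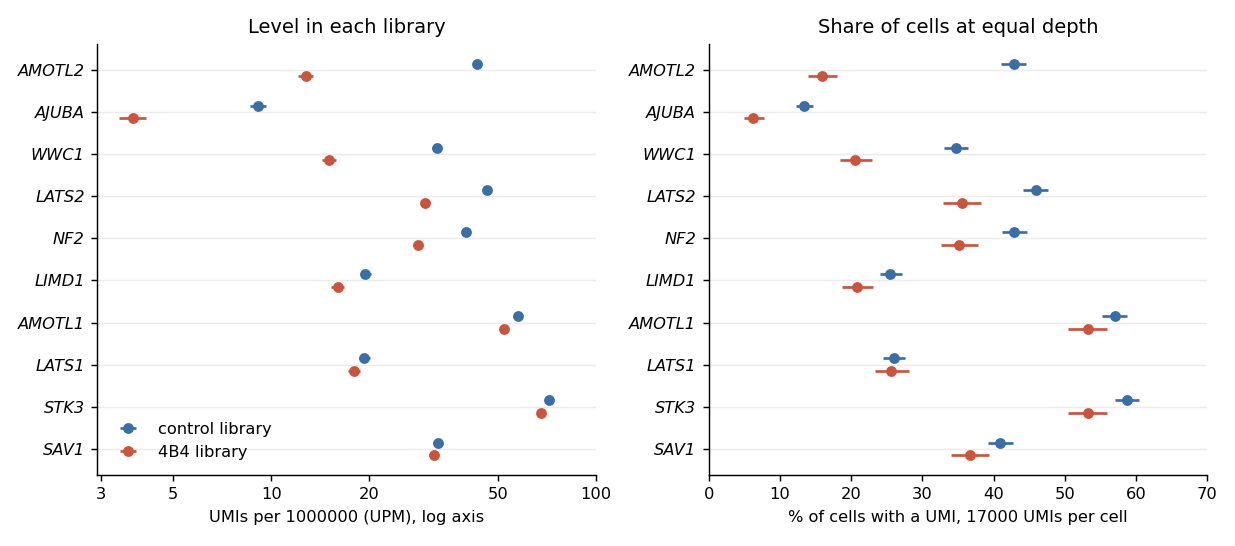
Level of each gene in UMIs per 1000000 (left, log axis) and share of cells with at least 1 UMI at 17000 UMIs per cell (right), in the control (blue) and 4B4 (red) library, with exact 95% counting intervals. AMOTL2 fell from 43.1 to 12.8 UPM and from 42.8% to 15.9% of cells, while LATS1 lay close together in both panels.

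**Figure D2:**
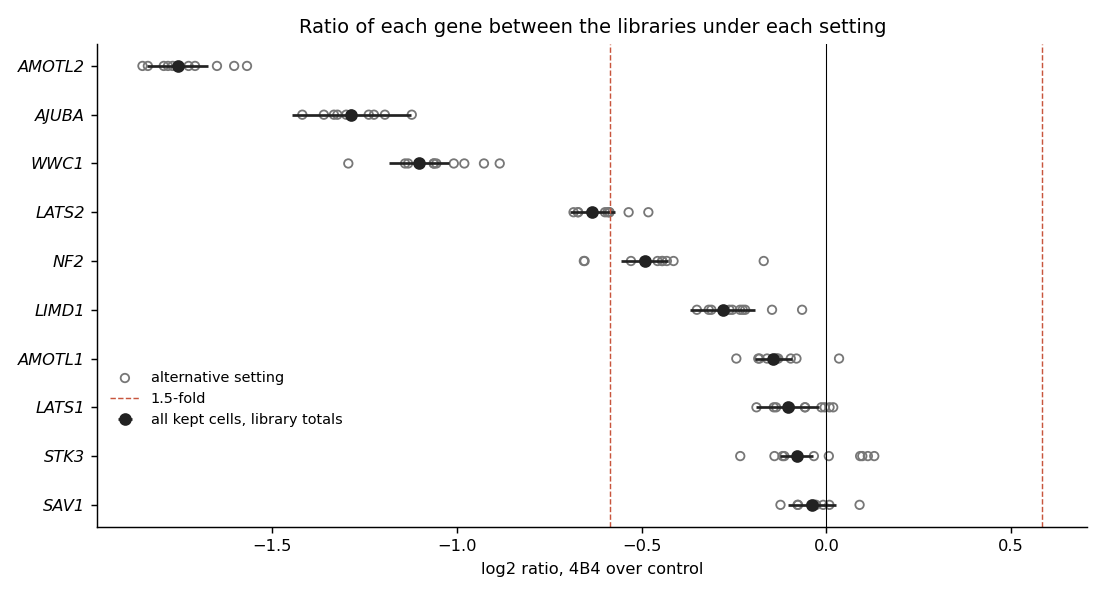
Log2 ratio of each gene (4B4 over control) over all kept cells (filled, with its counting interval) and under 10 other settings (open circles), with dashed lines at 1.5-fold. AMOTL2, AJUBA and WWC1 stayed below the lower line under every setting drawn, LATS2 and NF2 crossed it, and the others stayed between the lines.

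Because 4B4 cells held 2.25 times as many UMIs on average, a gene with a constant share of the transcriptome had more UMIs per cell there. AMOTL2 had a mean of 1.61 UMIs per control cell and 1.07 per 4B4 cell, and AJUBA 0.341 and 0.315. These 2 were the only ones of the 10 with fewer UMIs per cell in the 4B4 culture, a direction seen in 1.66% of all measured genes. No counting interval was computed for means per cell. The direction for AJUBA, at 0.92 times the control mean, is therefore not shown to exceed counting error. WWC1 was near level on that scale, at 1.21 and 1.27, and LATS2 had 1.73 in control cells and 1.45 times that with 4B4. SAV1, whose ratio of levels was nearest to 1, went from 1.22 to 2.66. Whether the deeper cells held more RNA or were read more deeply was not tested.

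At equal depth, 42.8% of control cells (41.1% to 44.6%) had an AMOTL2 UMI, and with 4B4 the share was 15.9% (13.9% to 18.0%). AJUBA was detected in 13.4% (12.2% to 14.6%) and 6.25% (5.01% to 7.70%), WWC1 in 34.7% (33.0% to 36.4%) and 20.6% (18.4% to 22.9%), and LATS2 in 45.9% (44.2% to 47.7%) and 35.5% (33.0% to 38.2%). LATS1 was found in 25.98% (24.4% to 27.6%) and 25.6% (23.3% to 28.1%), whose intervals overlapped. Without thinning, the AMOTL2 shares were 58.8% and 40.6%. Those of AJUBA (25.5% and 23.9%) and WWC1 (50.1% and 50.8%) had overlapping intervals. Unthinned shares ran the other way for LATS2 (64.0% and 69.9%), and LATS1 was found in 43.7% and 60.6%, in cells of unequal depth. STK3 was detected in 58.8% and 53.2% of cells at mean thinned levels of 1.24 and 1.33 UMIs, which run the other way, so no order is read from its shares. RNA released from other cells can add to these shares, and a culture of a single line has no cell type without these genes against which to gauge it.

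Some of the genes were spread more unevenly over cells than random sampling of UMIs alone gives. The variance of thinned UMIs over their mean, which sampling alone holds near 1, was 1.58 for AMOTL2 in the control culture and 1.64 in the 4B4 culture, against medians of 1.18 and 1.11 for genes within 25% of its mean. WWC1 had 1.72 and 1.38, beside medians of 1.16 and 1.12 for genes of its level. LATS2 had 1.60 and 1.55, beside 1.19 and 1.19, and STK3 had 1.91 and 3.65, beside 1.26 and 1.31. SAV1, at 1.12 and 1.22, lay near the medians of 1.16 and 1.18 for genes of its level. The 1% of cells richest in AMOTL2 held 8.09% of its UMIs in the control culture and 12.4% in the 4B4 culture, and leaving them out gave a log2 ratio of -1.84.

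Across cells, AMOTL2 followed established outputs of YAP and TEAD in both libraries. Cells were ranked by their summed UMIs of CCN1, CCN2 (both matricellular proteins) and ANKRD1 (a nuclear ankyrin-repeat protein) at equal depth, none of which is among the 10 genes, and cut into tertiles. In the control culture AMOTL2 was at 22.2 UPM in the bottom tertile, 33.6 in the middle and 70.5 in the top tertile, a log2 ratio of 1.67 (1.505 to 1.84) between top and bottom. In the 4B4 culture the levels were 4.98, 9.29 and 25.98 UPM, a log2 ratio of 2.38 (1.87 to 2.93). With tertiles cut by CCN1 alone these ratios were 1.40 and 1.63. No target UMI was found in 22.1% of control cells and 47.0% of 4B4 cells, so in the latter the border between the lower tertiles falls among equal cells.

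LATS2 and WWC1 followed the same ranking less steeply. LATS2 went from 31.7 to 61.3 UPM in the control culture and from 24.9 to 42.8 in the 4B4 culture, log2 ratios of 0.95 (0.80 to 1.10) and 0.78 (0.52 to 1.05). WWC1 went from 23.3 to 41.9 UPM and from 11.8 to 21.0, log2 ratios of 0.85 and 0.83. NF2 passed 1.5-fold in the control culture (0.66), though not within its G1 cells (0.48), and had 0.16 in the 4B4 culture. In G1 cells taken alone, 3 of the 10 genes were called higher in the top group of each culture, beside 2.85% of measured genes in the control and 2.74% in the 4B4 culture. Over all cells, 4 of the 10 genes were called higher in the top tertile of the control culture, where 3.51% of measured genes were, and 3 of the 10 in the 4B4 culture, where 2.48% were. In the bottom group of the 4B4 culture AMOTL2 was under 5 UPM, at 4.98 over all cells and 4.14 in G1 cells. Measured through the top group alone, AMOTL2 could only be called higher there.

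The other kinases and scaffolds did not follow this ranking to that bound. AMOTL1 had log2 ratios of 0.014 and -0.13, LATS1 0.025 and 0.063, STK3 -0.068 and -0.37, SAV1 0.28 and 0.34, and LIMD1 -0.27 and -0.26, in the control and 4B4 culture. AJUBA, at 0.57 (0.25 to 0.89) and 0.48 (-0.26 to 1.23), came short of 1.5-fold on few UMIs. Median MALAT1 levels of the control tertiles ran from 9706 UPM at the bottom to 7647 at the top, and of the 4B4 tertiles from 5588 to 10235, while the share of G2M cells ran from 14.1% to 22.7% and from 5.95% to 6.86%. The part of phase in the ratios was looked at in G1 cells only, where AMOTL2 had 1.72 and 2.53, LATS2 0.99 and 0.86, and WWC1 0.76 and 0.87. The part of MALAT1 was not tested, since the G1 groups still differed in it. Their median MALAT1 ran from 13412 UPM at the bottom to 11294 at the top in the control culture. In the 4B4 culture it ran from 5059 to 10824 UPM.

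Cells with like numbers of target UMIs were then compared between libraries, in bins chosen after the tertiles had been seen. In cells with 0 to 2 target UMIs (1533 control and 1012 4B4 cells) AMOTL2 was at 25.2 and 7.61 UPM, a log2 ratio of -1.72 (-2.01 to -1.45). In cells with 3 to 5 it was -1.12, with 6 to 10 it was -0.75, and with over 10 target UMIs (481 and 71 cells) it was -0.42 (-0.76 to -0.089), at 91.8 and 68.8 UPM. The ratio of AMOTL2 was thus nearer 0 in bins with more target UMIs. Like counts do not make the cells equal within a bin: in the lowest, ANKRD1 itself had a log2 ratio of -0.93 and CCN1 -0.58.

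LATS2 had log2 ratios between -0.36 and -0.19 in these 4 bins and passed 1.5-fold in none of them. WWC1 had -0.88, -0.44, -1.14 and -0.79 from the lowest to the highest bin and passed it in 3. NF2 was at 27.0, 29.8, 31.7 and 31.5 UPM in the 4B4 bins and at 31.8, 36.7, 40.6 and 54.1 in the control bins. LATS1 had ratios between -0.083 and 0.072, with its levels close in every bin. Of the 10 genes 3 were called lower in the lowest bin and 2 in each of the others, beside 4.15%, 5.89%, 5.06% and 5.93% of measured genes from the lowest to the highest bin. NF2 was among them in the highest bin alone (-0.78). AJUBA was called lower in cells with 0 to 2 target UMIs (7.98 and 3.37 UPM) and with 3 to 5 (7.12 and 2.75 UPM). In these 2 bins AJUBA reached 5 UPM in the control culture alone, and so could only be lower.

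**Figure D3:**
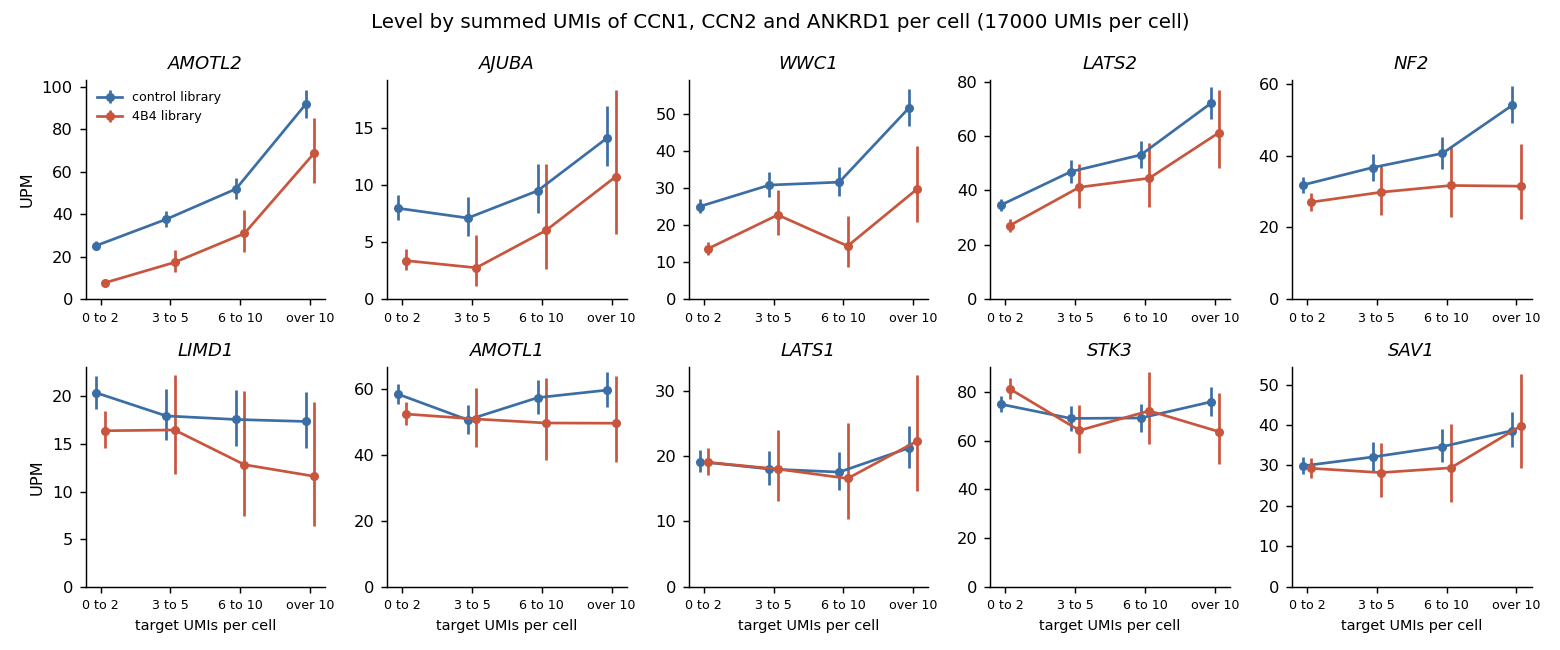
Level of each gene (UPM, thinned cells) by the summed UMIs of CCN1, CCN2 and ANKRD1 in a cell, in the control (blue) and 4B4 (red) library, with exact 95% counting intervals. AMOTL2 rose from 25.2 to 91.8 UPM in the control culture and from 7.61 to 68.8 in the 4B4 culture, whereas LATS1 and STK3 showed no such slope.

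Ranking all genes of at least 10 UPM in both libraries by their correlation across cells gave AMOTL2 5 neighbours, of which 3 were the target genes just used. Of 8294 genes, the highest Pearson r with AMOTL2 (the lower of the values from the 2 libraries, log scale, 3099 and 1311 cells) were those of ANKRD1 (0.35 in the control and 0.36 in the 4B4 culture), CCN1 (0.35 and 0.38), OGFRL1 (0.23 and 0.27), DDAH1 (0.22 and 0.22) and CCN2 (0.22 and 0.24). LATS2 was nearest to ASAP1 (0.30 and 0.32), EXT1 (0.30 and 0.35) and MALAT1 (0.28 and 0.33), followed by IGF2BP2 and TRIO, and WWC1 to EXT1 (0.25 and 0.25), ASAP1, DST, FRMD5 and TRIO. STK3 was nearest to MALAT1 (0.45 and 0.58), IGF2BP2, ZBTB20, ZFPM2-AS1 and PTPRG. AMOTL1 (MED13L, PTPRG, MALAT1, IGF2BP2, USP34) and LATS1 (MALAT1, ZBTB20) had lists that overlap with that of STK3, NF2 had DST alone at 0.2 or more in both libraries, and SAV1 and LIMD1 had no such gene. AJUBA was below the level needed. All cells of a library share its preparation, counts per cell are sparse, and these r values describe the libraries only.

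Over called cell cycle phases of the control culture, NF2, AJUBA and WWC1 had the largest ratios of G2M over G1 among the 10 genes. In the control culture NF2 was at 29.8 UPM (27.98 to 31.6) in 2078 G1 cells, 49.3 in 407 S cells and 56.3 (51.9 to 61.1) in 614 G2M cells, a log2 ratio of 0.92 (0.77 to 1.07) of G2M over G1. In the 4B4 culture it was at 26.7, 32.5 and 39.4 UPM, a ratio of 0.56 (0.14 to 0.96) that rested on 85 G2M cells and came short of 1.5-fold. WWC1 had log2 ratios of 0.57 (0.40 to 0.74) in the control and 0.82 (0.28 to 1.32) in the 4B4 culture. The control value of WWC1 passed the bound without thinning (0.66). AJUBA had 0.60 (0.28 to 0.90) in the control culture, and 0.36 without thinning.

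Calls by phase were near the background: 2 of the 10 genes were called higher in G2M in the control culture, as 13.5% of measured genes were, and 1 of the 9 measured in the 4B4 culture, as 13.7% were. AMOTL2 was at 39.2, 47.3 and 48.5 UPM in G1, S and G2M cells of the control culture and at 12.2, 27.9 and 16.6 in those of the 4B4 culture. In each phase it was lower in the 4B4 culture, with log2 ratios of -1.68, -0.76 and -1.55. LATS2 was level over phases, at 46.7, 42.9 and 44.3 UPM in the control culture and 31.6, 28.6 and 33.9 in the 4B4 culture. Within G1 cells at equal depth 3 of the 10 genes, AMOTL2, AJUBA (-1.01) and WWC1 (-0.86), were called lower with 4B4 beside 2.94% of measured genes, and LATS2 (-0.56) and NF2 (-0.16) were not. LATS2 did pass among G1 cells without thinning (-0.68). In S cells 4 genes, AMOTL2, AJUBA, WWC1 and NF2 (-0.60), were called lower beside 2.81% of measured genes, and LATS2 (-0.58) was not. In G2M cells 3 genes, AMOTL2, AJUBA and WWC1, were called lower beside 3.02%. These calls rest on 76 and 85 treated cells, which held 2 and 6 AJUBA UMIs. In G1, S and G2M cells alike AJUBA reached 5 UPM in the control culture alone, and so could only be lower.

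**Figure D4:**
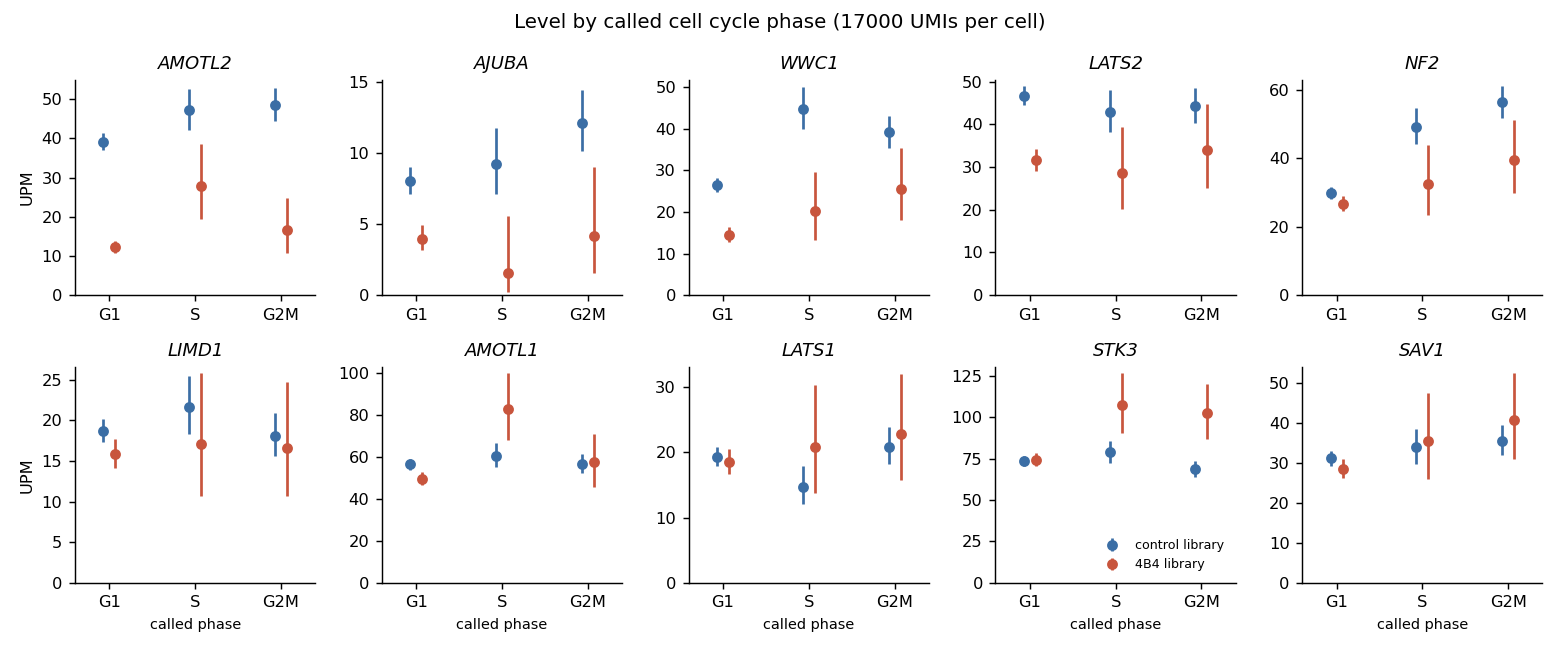
Level of each gene (UPM, thinned cells) in cells called G1, S and G2M, in the control (blue) and 4B4 (red) library, with exact 95% counting intervals. NF2 in the control culture stood at 29.8, 49.3 and 56.3 UPM, and in each phase AMOTL2 was lower in the 4B4 culture.

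STK3 was the gene of the 10 that differed most between cells rich and poor in MALAT1. G1 cells of each library were cut into tertiles by their share of MALAT1, an abundant RNA that stays in the nucleus. STK3 was at 24.5, 76.6 and 119 UPM in the bottom, middle and top tertile of the control culture, a log2 ratio of 2.28 (2.10 to 2.47), and at 14.4, 59.9 and 149 UPM in the 4B4 culture, a ratio of 3.37 (3.06 to 3.69). LATS1 had 1.59 and 2.25, LIMD1 1.48 and 1.92, LATS2 1.23 and 2.35, WWC1 1.07 and 2.31, and AMOTL1 0.94 and 1.37. SAV1 had 0.74 and 0.46, and NF2 0.40 and 1.01. AJUBA had 0.22 and 0.11, and AMOTL2 0.13 in the control culture and 1.06 in the 4B4 culture.

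Such a difference was common: 7 of the 10 genes were called higher in the top tertile of the control culture, where 43.4% of measured genes were, and 8 of the 9 measured in the 4B4 culture, where 49.5% were. WWC1 was at 4.75 UPM in the bottom tertile of the 4B4 culture, so that, measured through the top tertile alone, it could only be called higher there. Over all measured genes the difference between tertiles went with the length of the gene's span, and over the 10 genes with exceptions. In GENCODE release 29, on GRCh38, AJUBA spans 11.47 kb (chromosome 14, 22971174 to 22982642) and AMOTL2 19.6 kb (chromosome 3, 134355874 to 134375479). LATS2 spans 88.5 kb (chromosome 13, 20973032 to 21061547), NF2 95.0 kb (chromosome 22, 29603556 to 29698598) and WWC1 181 kb (chromosome 5, 168291651 to 168472303), and STK3 spans 572 kb. LATS1 spans 60.1 kb, AMOTL1 170.3 kb, LIMD1 131 kb and SAV1 36.3 kb. NF2 and AMOTL1 thus had smaller ratios than the shorter LATS1 and LATS2 in both cultures. Over all measured genes, the median log2 ratio between tertiles was -0.24 for spans under 25 kb and 1.32 for spans of 100 kb or more in the control culture, and -0.35 and 2.04 in the 4B4 culture. Spearman's rank correlation between span and ratio was 0.70 and 0.71 over 11540 and 11664 genes, which are not independent, and 0.64 and 0.70 over the 10 genes. It is not given in the sources used here whether reads in introns were counted.

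**Figure D5:**
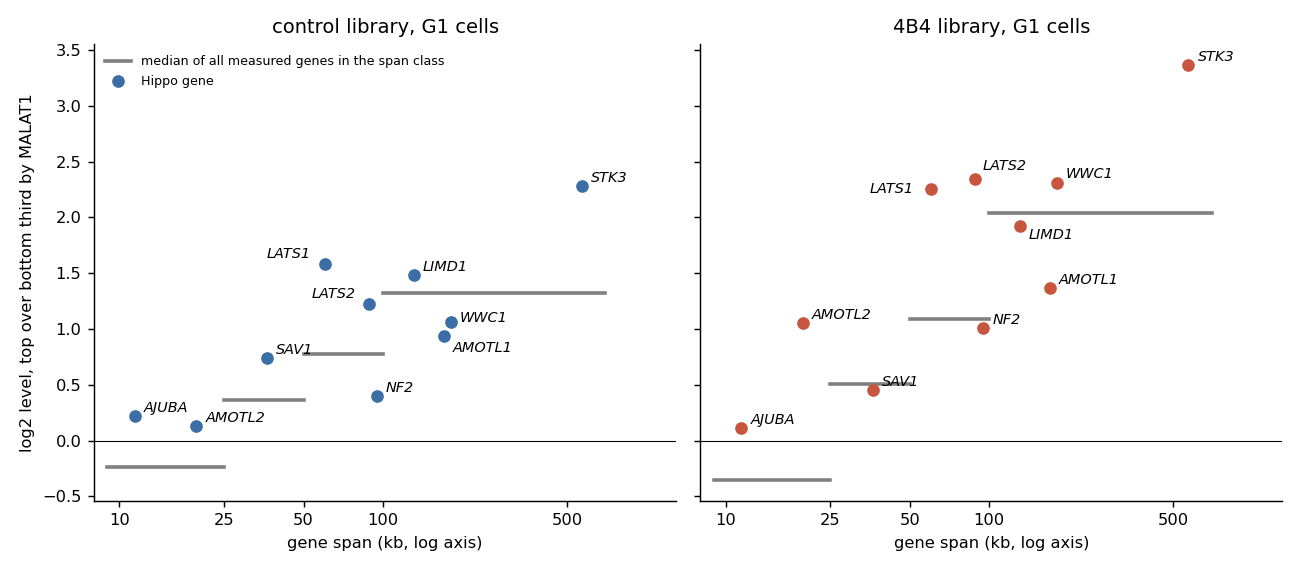
Log2 level in the top over the bottom tertile of G1 cells by MALAT1 share, against the gene's span in kb (log axis), for the 10 genes (points) and as medians of all measured genes by span class (grey bars), in each library. STK3, with a span of 572 kb, lay highest in both libraries (2.28 and 3.37).

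The libraries differed in these genes to unlike extents along the MALAT1 tertiles. WWC1 had log2 ratios (4B4 over control) of -1.68, -1.07 and -0.44 from the bottom to the top tertile, LATS2 -1.34, -0.72 and -0.23, and AMOTL2 -2.07, -2.002 and -1.14. AJUBA had -1.01, -0.89 and -1.12, with no such order. Median MALAT1 levels of the tertiles were 882, 11647 and 30588 UPM in the control culture and 353, 7824 and 30882 in the 4B4 culture, so the lower tertiles were not matched between libraries. The median ratio of all measured genes was -0.019, -0.019 and 0.11. Among the 10 genes 5 were called lower in the bottom tertile, 5 in the middle and 2 in the top tertile, beside 12.3%, 6.93% and 2.38% of measured genes. AJUBA in every tertile, and WWC1 in the bottom one, reached 5 UPM in the control culture alone, and so could only be lower.

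The rest of the pathway was read from lists of related genes, beside the 5.82% of measured genes called lower and 2.1% called higher. Of 15 measured genes of the kinase module outside the 10, TNIK, a kinase related to the MAP4K group, alone was lower, at 128 and 74.0 UPM (log2 ratio -0.79). No gene of this list was higher, its median was -0.0085, and its share called lower was near that of all genes. Of 13 measured upstream and scaffold genes 4 were lower and none was higher (median -0.22). Lower were WTIP, PATJ (7.48 and 3.65 UPM, -1.04), a scaffold of apical polarity complexes, and RASSF1 (-0.68). So was PTPN14 (255 and 166 UPM, -0.61), a phosphatase that binds YAP. WTIP and PATJ reached the level needed to be measured in the control culture alone, and so could only be lower. None of 15 measured genes of the STRIPAK phosphatase complex and of protein turnover passed 1.5-fold in either direction, with STRN4 at 0.29 and a median of 0.042.

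Of the 7 effectors, TEAD4 alone was lower (20.6 and 11.9 UPM, -0.79), no gene was higher, and the median was 0.099, on a list of few genes. Among 11 measured outputs of YAP and TEAD, 8 were lower, beside 5.82% of all measured genes, and none was higher (median -0.96), with ANKRD1 at -1.54, CCN1 at -1.39 and TGFB2, a TGF-beta ligand, at -1.06. These lists were drawn up with earlier results of these data known, and the outputs had been seen to be lower. The outputs ranged from -1.54 to 0.22, with AJUBA inside that range and AMOTL2 below it.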

How the data were processed

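The authors deposited raw UMI counts per gene and barcode, and per the file headers these come from Cell Ranger 7.1.0. GRCh38 and Seurat 5.0.1 are named, without a role, in the submitters' processing notes. Groups came from the treatment labels. The members and lists were chosen with earlier results of these data known. Levels are a gene's summed count relative to the sum over all genes of the kept cells. At 95%, intervals are exact Poisson for levels and Clopper-Pearson for shares, and for ratios they follow from the Clopper-Pearson bounds on the split of a gene's UMIs between groups. All cover counting error only. A gene was called at 1.5-fold with its interval on the same side of 1, from 5 UPM in either library. No replicate exists, so no p-value was computed. Cells were thinned without replacement to 17000 UMIs, which left out 303 control and 74 4B4 cells. Phases came from scanpy 1.11.5 with 43 S and 54 G2M genes. No doublet caller was run and doublets were not removed. Antisense partners LATS2-AS1 (2.37 and 1.19 UPM) and LIMD1-AS1 (1.91 and 1.31 UPM) were counted apart, but strand use is not given in the sources used here, so their reads cannot be told apart with certainty. GENCODE positions matched 94.6% of gene IDs. Named were all 10 genes, up to 5 neighbours of r 0.2 or more in both libraries (leaving out mitochondrial, ribosomal protein, clone-named and LINC genes), and from each other list up to 4 called genes, otherwise the one with the largest ratio. One output gene that this rule names is not reported here. The ratio and its call were run on simulated sums with counting error only, the error the intervals assume. Spread between cells or cultures was not simulated, so that run does not bear on it. Alternatives were no cell filter, a stricter one, thinning, equal weight per cell, TMM scaling (edgeR 4.0.16), a total without mitochondrial genes, G1 cells, equal phase weights, cells of 20000 to 60000 UMIs, and leaving out the 1% of cells richest in a gene. For the weighted means the interval width of the unweighted ratio was used.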

Additional observations from a re-analysis of the deposited data

Results flagged for a closer look

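AMOTL1 and STK3 had ratios of opposite sign in different cells of the same libraries, each with a counting interval clear of 0. The difference between the cell groups was not tested, since each rests on 1 library per condition. AMOTL1 had a log2 ratio (4B4 over control) of -0.19 (-0.30 to -0.077) in G1 cells and 0.45 (0.13 to 0.76) in cells called S. The S cells number 76 in the 4B4 culture and held 107 AMOTL1 UMIs at equal depth. The highest 4B4 cell, whose phase was not looked up, held 23. Counting intervals do not cover such uneven spread over cells. STK3 had -0.77 (-1.12 to -0.43) in the tertile of G1 cells lowest in MALAT1, -0.36 (-0.53 to -0.18) in the middle tertile and 0.32 (0.20 to 0.44) in the highest tertile. By phase, STK3 had 0.015 (-0.078 to 0.11) in G1, 0.45 (0.17 to 0.72) in S and 0.58 (0.31 to 0.84) in G2M cells.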

How the results depend on the processing

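Without replicates no value below has an error between cultures, and counting intervals cover sampling of UMIs only. The count of genes at least 1.5-fold lower was 4 and ranged from 3 to 5 over 10 other settings, and the count higher was 0 under each. At a 2-fold bound 3 were lower and 0 higher. AMOTL2, AJUBA and WWC1 were called under all 10 alternatives for ratios. LATS2 was not called with thinned cells or equal weight per cell, and NF2 was called with stricter limits on cells and in the band from 20000 to 60000 UMIs. The cause was not tested. The median log2 ratio of -0.39 became -0.50 with stricter limits on cells, -0.25 when every cell had equal weight and -0.25 in G1 cells. All 20 shares of cells moved beyond their counting interval without thinning. Of the 10 genes, 6 kept their sign under all 10 alternatives. No paired analysis was possible because each group holds 1 library. Depth limits AJUBA: at 17000 UMIs per cell it had 2 UMIs in all 4B4 cells called S and 6 in those called G2M.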

Other observations

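In the deeper 4B4 culture a single cell held 160 of the 7885 STK3 UMIs, against a highest value of 37 in the control culture, both before thinning. At equal depth the highest cells held 25 and 13 STK3 UMIs, and for AMOTL1 they held 23 and 8. In the 4B4 culture the 1% of cells richest in STK3 held 9.03% of its UMIs before thinning. Without these cells in either library its log2 ratio was -0.11.

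Of 684 control cells without any UMI of CCN1, CCN2 or ANKRD1 at equal depth, 23.2% (20.1% to 26.6%) had an AMOTL2 UMI, and of 616 such cells in the 4B4 culture 7.79% (5.80% to 10.2%). Among cells with a target UMI the shares were 48.4% (46.4% to 50.4%) and 23.0% (19.9% to 26.3%). Neither group of cells is matched between libraries: a count of 0 at this depth does not make target expression equal, and in cells with 0 to 2 target UMIs ANKRD1 had a log2 ratio of -0.93 and CCN1 of -0.58.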
